A study of Mus musculus with 8 samples.

Results

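The genes described here encode much of the nuclear part of the mitochondrial respiratory chain, together with the ATP synthase it drives. They were chosen by name from the table of the whole series: symbols starting with Ndufa, Ndufb, Ndufc, Ndufs or Ndufv, the genes Sdha to Sdhd, and symbols starting with Uqcr, with Cox4 to Cox8, or with Atp5. Symbols ending in -ps, which mark pseudogenes, were left out, and each identifier was counted once. This gave 93 of 52325 genes: 36 of complex I, 8 assembly factors of complex I, 4 of complex II, 8 of complex III, 20 of complex IV and 17 of complex V. Ndufa4 and its paralog Ndufa4l2, named after complex I, were counted with complex IV, where the Ndufa4 protein is now placed. Complex V was counted by name. It includes Atp5s and Atp5sl, which RefSeq lists as Dmac2l and Dmac2 and which were not reassigned. The 13 subunits encoded by the mitochondrial genome do not match the rule and are given only for comparison. Nuclear-encoded subunits with other names, such as Cyc1 of complex III, do not match it either, so sums by complex are partial.

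The libraries came from costal chondrocytes, the cells of rib cartilage, which were set free with collagenase and lysed without culture or treatment. The comparison is of 4 wild-type (WT) mice with 4 Mir324-null mice, which lack the gene of the microRNA miR-324, with 1 library per mouse. The sources used here do not state strain, age, sex or the kind of null allele. The values are TPM, a relative transcript level corrected for transcript length in which every library sums to the same total, so sequencing depth is not recorded and counting error cannot be given. Null replicate 3 stood apart: its median-of-ratios size factor was 0.818, while the others were 0.977 to 1.09, and limma gave it an array quality weight of 0.188, while the others were 0.674 to 2.36. Where it stood apart in a result, the values without it are given beside it.

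Complex I takes electrons from NADH and complex II takes them from succinate, and both pass them to ubiquinone. Complex III hands them to cytochrome c and complex IV gives them to oxygen. The protons pumped by complexes I, III and IV drive the ATP synthase, complex V. Each complex other than II combines subunits made in the cytosol from nuclear mRNAs with subunits made inside the mitochondrion. Cartilage has no blood vessels, and chondrocytes are known for relying heavily on glycolysis.

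A microRNA silences mRNAs that pair with its seed, bases 2 to 8 from its 5′ end. The mature sequences of mouse miR-324 (RefSeq, GRCm38.p6, chr11:70012043-70012131 for the hairpin, plus strand) are shown because the seed, in capitals, defines the sites searched for in the 3′ UTRs.
mmu-miR-324-5p: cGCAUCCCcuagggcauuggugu
mmu-miR-324-3p: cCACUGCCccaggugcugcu
The longest annotated 3′ UTR of each gene was searched, which need not be that of its main mRNA. Few of these genes hold such a site. Of the 89 with an annotated 3′ UTR, 2 (2.25%) hold the 5p site GGGATGC, against 9.36% of 11320 genes, and 6 (6.74%) hold the 3p site GGCAGTG, against 17.6%. Their UTRs are shorter, with a median of 289 bases against 1337.5, and the shares were not adjusted for it. Atp5g1, a gene for the rotating c subunit of ATP synthase, holds both sites, and Ndufab1 is the complex I gene with the smallest p in the comparison below. The UTRs searched had 4252 bases in Atp5g1 and 2944 in Ndufab1. The transcripts with the longest coding sequence have only 596 and 1416 bases in all. The sites shown thus belong to longer annotated forms, and whether these cells make those forms was not tested. Their sites are shown with the seed match in capitals, on the mRNA strand.
Atp5g1, 5p site at bases 3078 to 3084 of its 3′ UTR (chromosome 11): gggccagggagatcaGGGATGCatgg
Atp5g1, 3p site at bases 2999 to 3005: gctgatcatgaggttGGCAGTGtggc
Ndufab1, 3p site at bases 2301 to 2307 of its 3′ UTR (chromosome 7): taatggatggagctgGGCAGTGgtgg
The log2 fold changes, null minus WT, were 0.10 for Atp5g1 and -0.06 for Ndufb8, the genes with a 5p site. For the other genes with a 3p site they were -0.43 for Ndufab1, -0.10 for Ndufaf8, -0.07 for Ndufaf7, -0.04 for Ndufa7 and -0.02 for Ndufb2. None of the 7 passed the test described next.

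The question was whether the mRNAs of the chain differed between WT and null chondrocytes. Genes with at least 1 TPM in at least 4 libraries were tested with limma on log2(TPM + 1), and p-values were adjusted over all 13910 genes tested. Of the 93 genes 89 were tested, and 0 passed an adjusted p of 0.05, where 0.0216% of all genes (3 of 13910) did. Of all genes 0.00719% passed as higher and 0.0144% as lower in the null group, and 0 chain genes in either direction. At an unadjusted p under 0.05 there were 2, Ndufab1 and Ndufaf6, or 2.25% of the 89 against 4.15% of all genes. For 0 of the 89 did the WT and null values fail to overlap, against 2.68% of all genes. The median log2 fold change was -0.02 for the 89 genes and -0.05 for all genes tested, with 36 positive and 53 negative values. The 4 genes left untested were Cox6a2, Cox7b2, Cox8b and Cox8c, and Cox8c was listed at 0 TPM in all 8 libraries.

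By complex the medians lay close to 0 and differed little. The median log2 fold change was -0.04 for complex I, -0.02 for its assembly factors, -0.01 for complex II, 0.01 for complex III, 0.06 for complex IV and -0.03 for complex V. Negative values numbered 27 of 36 in complex I, 4 of 8 in its assembly factors, 2 of 4 in complex II, 4 of 8 in complex III, 5 of 16 in complex IV and 11 of 17 in complex V. These signs depend on the scaling: when each library was rescaled by the median of ratios, which moved the median of all genes to -0.01, the medians of all 6 groups were positive, from 0.01 in complex I to 0.11 in complex IV.

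The confidence intervals bounded the differences of most of these genes, on the log2(TPM + 1) scale, which understates the change of low genes. The 95% confidence interval (CI) of the change did not reach beyond 1.5-fold in either direction for 66 of 89 genes (74.2%), against 41.9% of all genes, and not beyond 2-fold for 85 (95.5%), against 79.9%. The genes outside the wider bound were Ndufa12, Ndufaf2, Ndufaf6 and Cox7a1. Within the WT group the median coefficient of variation was 10.8% for the 89 genes and 19.0% for all genes, and within the null group 17.03% and 25.8%. Without null replicate 3 the null values were 9.68% and 16.7%, below those of the WT group. The chain genes were also more abundant, with a median of 39.7 TPM against 8.57 TPM, and what level and length contribute to the tighter spread was not tested.

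**Figure D1:**
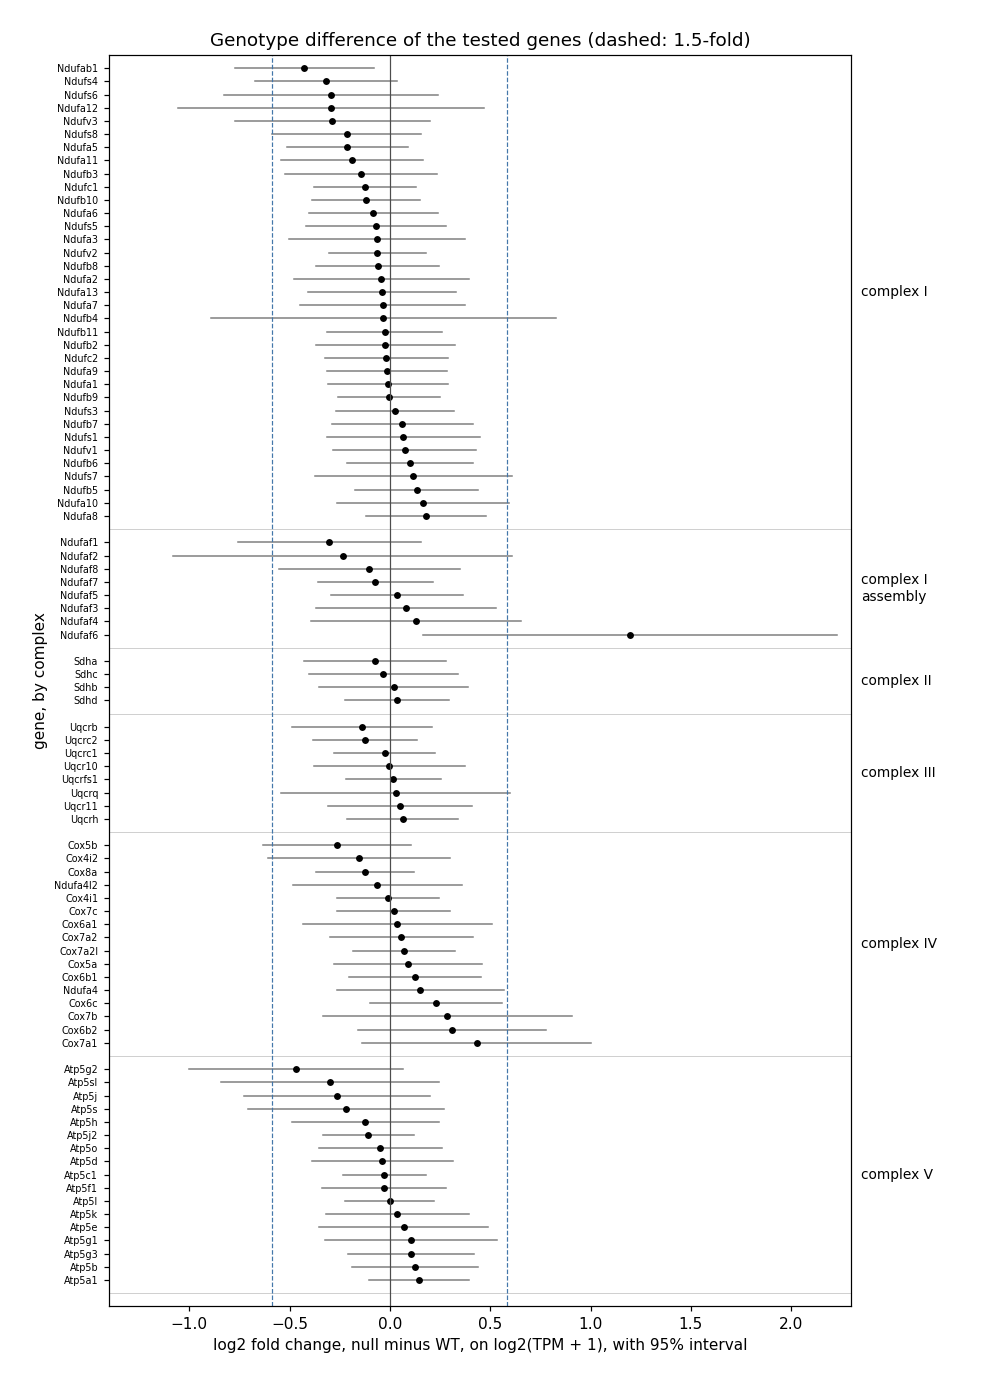
Log2 fold change of 88 of the 89 tested genes, null minus WT on log2(TPM + 1), with its 95% interval from limma, sorted within each complex. The dashed lines mark a 1.5-fold change, and the intervals of 65 of those drawn lie between them, while Ndufaf6 stands at 1.20 with an interval of 0.17 to 2.23.

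Summed over each complex, the means of the groups were close. The null libraries were more spread, except in the complex I assembly factors. The closeness of several sums came with 1 null library, as the values without it show. All 93 genes together held 5353 ± 131 TPM (SD, n = 4) in WT mice and 5362 ± 654 TPM (SD, n = 4) in null mice. Complex I held 1286 ± 56.6 and 1239 ± 121 TPM, complex III 618 ± 8.92 and 627 ± 99.1 TPM, complex IV 1429.8 ± 35.5 and 1495 ± 216 TPM, and complex V 1707 ± 53.9 and 1698 ± 226 TPM, WT first (SD, n = 4 each). Complex II, the smallest, held 235 ± 25.2 and 228 ± 28.3 TPM, and the complex I assembly factors held 77.98 ± 18.05 and 74.8 ± 15.3 TPM (SD, n = 4 each).

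Much of the wider null spread, but not all of it, came with 1 library, null replicate 3. Its 93 genes summed to 6309.7 TPM, while the other 7 libraries lay between 4805 and 5505 TPM, and without it the null group stood at 5046 ± 209 TPM (SD, n = 3). The other null libraries, at 5159, 4805 and 5174 TPM, then lay below every WT library, the lowest of which held 5205 TPM. Without null replicate 3 the null sums were 1180.5 ± 36.3 TPM in complex I, 67.8 ± 7.997 TPM in its assembly factors, 237 ± 25.9 TPM in complex II, 579.6 ± 35.1 TPM in complex III, 1388 ± 44.1 TPM in complex IV and 1592 ± 96.1 TPM in complex V (SD, n = 3 each). These SDs still exceeded the WT SDs of 8.92, 35.5 and 53.9 TPM in complexes III, IV and V. In complex I and its assembly factors they lay below the WT SDs. The mean of complex IV thus went from above that of the WT mice to below it, as did that of complex III, and all 3 remaining null sums of complex III lay below the lowest WT sum of 605.8 TPM. It was the highest of the 8 libraries for 45 of the 89 tested genes (50.6%), against 11.5% of all genes, although it was the lowest library for 43.3% of all genes. The median deviation of a gene from its own 8-library mean was 0.22 in this library for the chain genes and -0.25 for all genes, on the log2(TPM + 1) scale. Null replicate 2 stood at the other end: it was the lowest library for 30 chain genes (33.7%), against 9.78% of all genes, with a median deviation of -0.11 against 0.06. The deviations of null replicate 3 ran through all the groups but complex II: its median was 0.32 in complex IV, 0.27 in complex V, 0.20 in complex III, 0.19 in complex I, 0.28 in the assembly factors and -0.11 in complex II.

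Null replicate 3 was 1 of 3 libraries with Y-linked RNA in place of Xist, with WT replicate 2 and null replicate 4. Without it 67 of the 89 genes had a negative log2 fold change and 22 a positive one, with a median of -0.08, while the median of all genes was 0.02. By complex the medians were then -0.11 in complex I, -0.02 in its assembly factors, 0.02 in complex II, -0.07 in complex III, -0.04 in complex IV and -0.10 in complex V. In that comparison 0 genes of the chain passed an adjusted p of 0.05, 6 (6.74%) had an unadjusted p under 0.05, against 5.06% of all genes, and 5 (5.62%) had values that did not overlap, against 5.99% of all genes. The lowest p belonged to Atp5g2, with a log2 fold change of -0.69 (95% CI -1.01 to -0.36, limma adjusted p = 0.956). The chain genes have short transcripts, with a median of 758 bases against 2365 for all genes. With all 8 libraries kept, removing each library's trend with transcript length gave a median log2 fold change of -0.00490 for the chain genes and 0.00100 for all genes. Before removal these medians of the 8 libraries were -0.0242 and -0.0545. The removal was not tried without null replicate 3. The part of length and RNA quality in the pattern of this library was not tested.

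**Figure D2:**
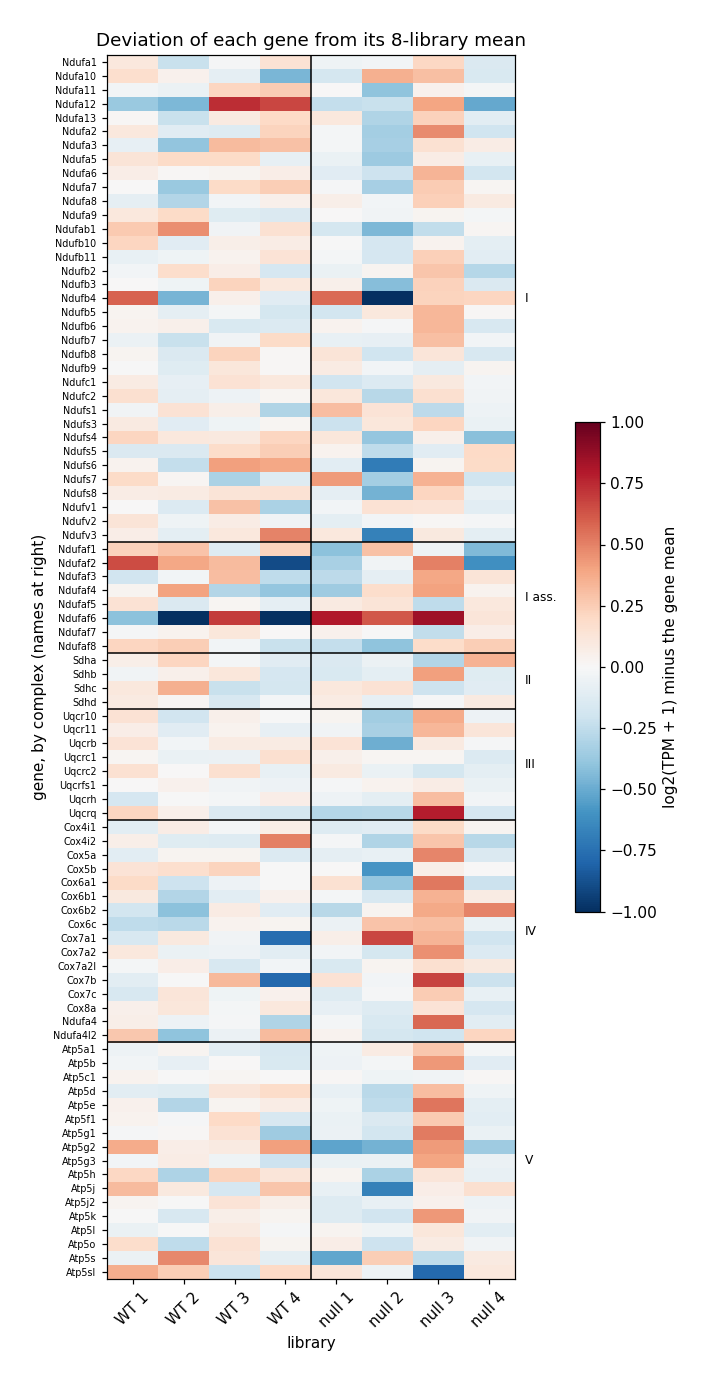
Deviation of each of 88 tested genes from its own 8-library mean on log2(TPM + 1), 1 row per gene by complex and 1 column per library, with colours limited to a range of -1 to 1. The column of null replicate 3 is mostly red (higher), with a median of 0.22 over the 89 genes, and that of null replicate 2 mostly blue (lower), with a median of -0.11.

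Complex I is the largest of the complexes, and some of its nuclear genes encode core subunits, which bind NADH and carry electrons through iron-sulfur clusters. Ndufs8, an iron-sulfur subunit, had a log2 fold change of -0.22, and Ndufs7, which carries the last cluster before ubiquinone, had 0.12. Ndufv1, the NADH-binding subunit, stood at 23.5 ± 4.47 TPM (SD, n = 4) in WT mice and 24.6 ± 2.17 TPM (SD, n = 4) in null mice. Ndufs1, its largest iron-sulfur subunit, stood at 17.9 ± 2.43 TPM (SD, n = 4) in WT mice and 18.9 ± 3.35 TPM (SD, n = 4) in null mice. The core genes Ndufs3 and Ndufv2 had log2 fold changes of 0.02 and -0.06. Across the whole complex the 8-library mean ran from 2.15 TPM for Ndufa11 to 119 TPM for Ndufa10, a ratio of 55.6 between subunits that a complete enzyme holds in equal number.

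Ndufab1 (chr7:122085403-122101886, minus strand, GRCm38), the mitochondrial acyl carrier protein, serves both complex I and fatty acid synthesis in the mitochondrion. It stood at 70.2, 81.1, 56.9 and 65.1 TPM across the WT mice, replicates 1 to 4, and 51.6, 42.4, 48.9 and 59.2 TPM across the null mice in the same order. Null replicate 4 alone lay within the WT range, and the others lay below it. The log2 fold change was -0.43 (95% CI -0.77 to -0.08, unadjusted p = 0.0218, limma adjusted p = 0.981). Ndufs4 (chr13:114287795-114388258, minus strand), an accessory subunit at the electron-entry arm whose loss in mice causes a disease like Leigh syndrome, stood at 35.7, 32.9, 32.8 and 35.6 TPM across the WT mice, replicates 1 to 4, and 33.1, 23.1, 31.7 and 22.6 TPM across the null mice in the same order. Null replicates 2 and 4 lay well below every WT value, null replicate 3 just below, and null replicate 1 within the WT range. Its log2 fold change was -0.32 (95% CI -0.67 to 0.04, limma adjusted p = 0.981).

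Ndufa5, another accessory subunit of the matrix arm, stood at 51.1, 53.3, 53.4 and 43.97 TPM across the WT mice, replicates 1 to 4, and 44.6, 36.1, 49.2 and 44.2 TPM across the null mice in the same order. Null replicate 2 was the lowest of the 8, and the other null values lay within the WT range. The log2 fold change was -0.21 (95% CI -0.51 to 0.09). Ndufa10 (chr1:92439010-92473860, minus strand), the most abundant complex I mRNA as listed, stood at 132, 121, 110.3 and 85.3 TPM across the WT mice, replicates 1 to 4, and 104, 150.5, 145 and 105 TPM across the null mice in the same order. WT replicate 4 was the lowest and null replicates 2 and 3 the highest, with a log2 fold change of 0.17 (95% CI -0.26 to 0.60). Ndufc1, a small membrane subunit and the next most abundant, stood at 90.01 ± 6.07 TPM (SD, n = 4) in WT mice and 82.5 ± 7.51 TPM (SD, n = 4) in null mice, with null replicates 1 and 2 below the WT range and null replicates 3 and 4 within it.

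The assembly factors, which help build complex I and are absent from the finished enzyme, held the widest single difference, that of Ndufaf6. Ndufaf6 (chr4:11051045-11076205, minus strand) stood at 3.35, 1.18, 8.36 and 1.37 TPM across the WT mice, replicates 1 to 4, and 9.03, 7.89, 9.396 and 5.27 TPM across the null mice in the same order. The null values were high throughout, whereas 3 of the WT values lay below all of them and WT replicate 3 lay among them. The log2 fold change was 1.20 (95% CI 0.17 to 2.23, unadjusted p = 0.0280, limma adjusted p = 0.981), the largest in size among the 89 genes. It ran from 0.93 to 1.63 when each library was left out in turn and stayed positive in every alternative setting tried.

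Ndufaf1, a factor of the membrane arm, stood at 11.1, 11.6, 8.46 and 11.04 TPM across the WT mice, replicates 1 to 4, and 6.78, 11.7, 8.995 and 6.63 TPM across the null mice in the same order. Null replicates 1 and 4 lay below the WT range while null replicates 2 and 3 did not, and the log2 fold change was -0.30 (95% CI -0.76 to 0.15). Ndufaf2, which binds a late intermediate, was the most abundant of the assembly factors at 31.6 TPM on average. It stood at 47.3, 39.2, 37.2 and 15.5 TPM across the WT mice, replicates 1 to 4, and 23.4, 28.99, 42.5 and 19.02 TPM across the null mice in the same order, and all the null values lay within the WT range. Ndufaf4 stood at 10.96 ± 3.08 TPM (SD, n = 4) in WT mice and 12.01 ± 2.75 TPM (SD, n = 4) in null mice, with a log2 fold change of 0.13 (95% CI -0.39 to 0.66).

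Complex II is the only complex with no mitochondrially encoded subunit, and it is also an enzyme of the citric acid cycle. Sdha, the flavoprotein that oxidizes succinate, stood at 155, 173, 147 and 138 TPM across the WT mice, replicates 1 to 4, and 134, 143, 121 and 189 TPM across the null mice in the same order. Null replicate 4 was the highest of the 8 and null replicate 3 the lowest, so the null values spanned the WT values, and the log2 fold change was -0.07 (95% CI -0.43 to 0.28). The membrane anchors, which hold the haem and a ubiquinone site, were close between groups. Sdhc stood at 47.6 ± 9.24 TPM (SD, n = 4) in WT mice and 46.1 ± 5.46 TPM (SD, n = 4) in null mice and Sdhd at 21.4 ± 1.58 TPM (SD, n = 4) in WT mice and 21.96 ± 1.305 TPM (SD, n = 4) in null mice, with log2 fold changes of -0.03 (95% CI -0.40 to 0.34) and 0.04 (95% CI -0.22 to 0.30). Sdhb, the iron-sulfur subunit, was the least abundant at 12.6 TPM on average, against 150.1 TPM for Sdha, a ratio of 11.9.

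In complex III null replicate 3 was the highest library for 5 of the 8 genes, most of them small subunits. Uqcrfs1, the Rieske iron-sulfur protein, stood at 20.5 ± 0.603 TPM (SD, n = 4) in WT mice and 20.8 ± 0.900 TPM (SD, n = 4) in null mice. Uqcrc2, a core protein of the matrix side, stood at 50.9, 45.8, 51.1 and 43.4 TPM across the WT mice, replicates 1 to 4, and 48.6, 43.6, 40.3 and 42.5 TPM across the null mice in the same order. Null replicates 3 and 4 lay below the WT range and null replicates 1 and 2 within it, with a log2 fold change of -0.12 (95% CI -0.38 to 0.14).

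Uqcrh (chr4:116066965-116075071, minus strand), the hinge subunit near the cytochrome c site, was as listed the most abundant at 223, 250.0, 247 and 261 TPM across the WT mice, replicates 1 to 4, and 241, 234, 310.0 and 245 TPM across the null mice in the same order. Null replicate 3 lay above all the others and the remaining null values lay within the WT range, giving a log2 fold change of 0.06 (95% CI -0.21 to 0.34) that was -0.03 without this library. Uqcrq, a small subunit near the ubiquinone site, stood at 98.6, 87.6, 76.4 and 74.8 TPM across the WT mice, replicates 1 to 4, and 69.5, 69.6, 147 and 75.2 TPM across the null mice in the same order. Null replicate 3 was again the highest and null replicates 1 and 2 were the lowest, so the log2 fold change of 0.03 (95% CI -0.54 to 0.60) was -0.23 without null replicate 3. Uqcrb stood at 82.4 ± 3.89 TPM (SD, n = 4) in WT mice and 75.7 ± 13.9 TPM (SD, n = 4) in null mice, and null replicate 2, at 55.5 TPM, was the lowest of the 8.

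**Figure D3:**
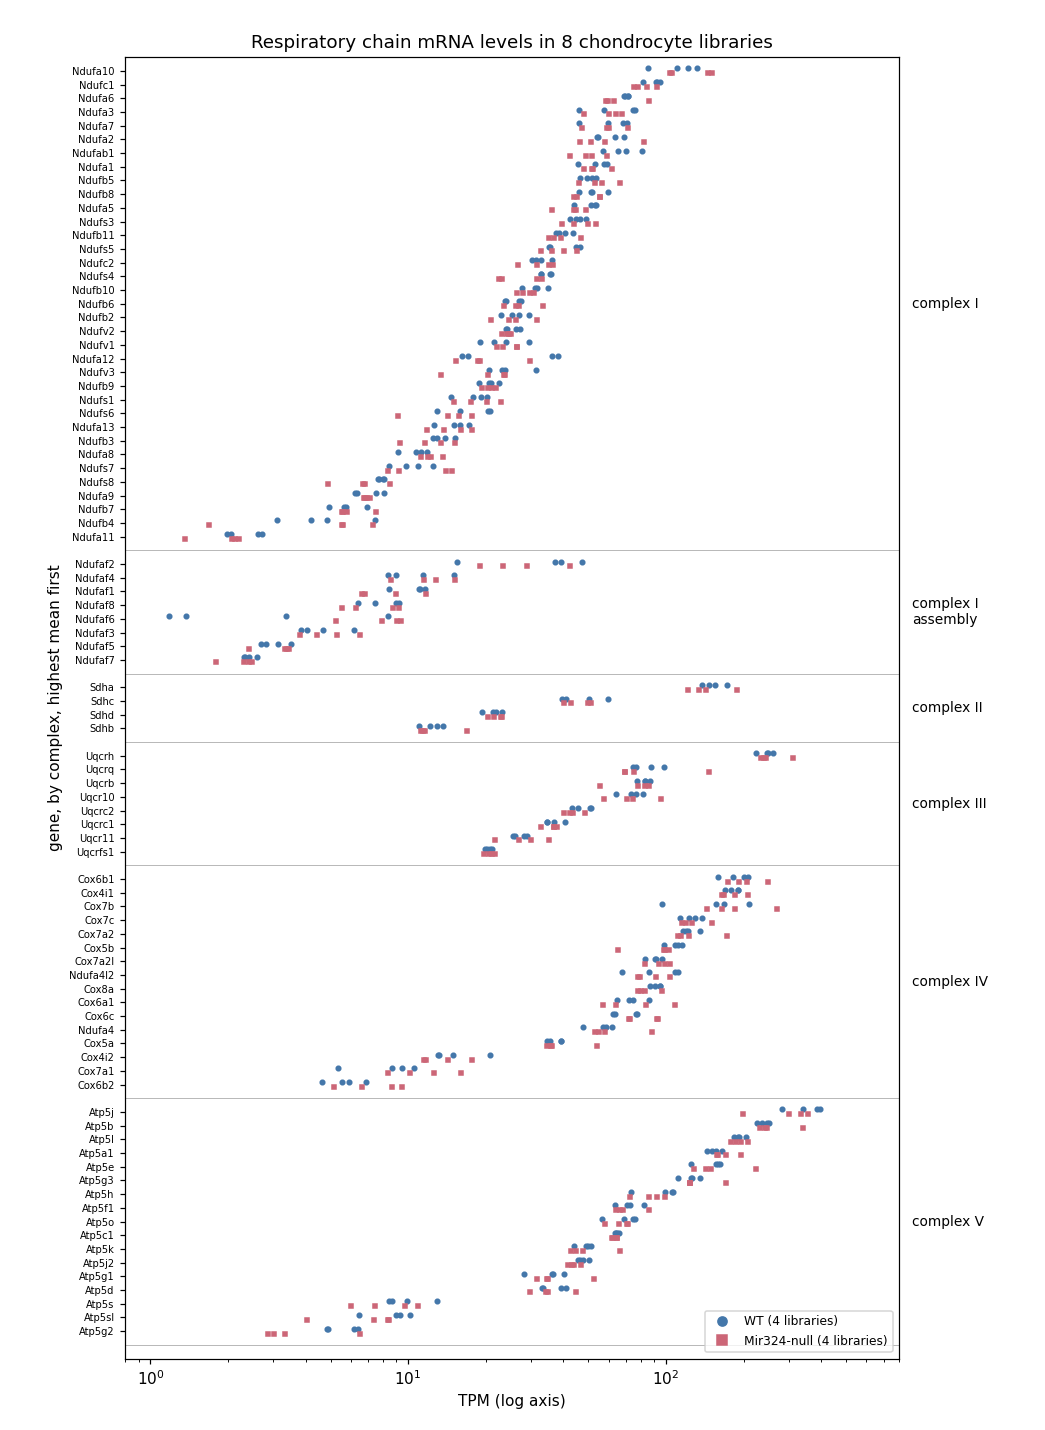
TPM of 88 of the 89 tested genes in every library on a log axis, by complex and with the highest mean first, WT as circles and null as squares. The levels run from about the 1 TPM of Ndufaf6 in WT replicate 2 (1.18) to the 396 TPM of Atp5j in WT replicate 1, and for no gene are the groups fully separated.

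Complex IV, cytochrome c oxidase, reduces oxygen, and its nuclear subunits surround a catalytic core made in the mitochondrion. Cox5a (chr9:57521274-57532426, plus strand), the gene taken to mark the chain, stood at 35.5, 39.02, 39.02 and 34.7 TPM across the WT mice, replicates 1 to 4, and 35.9, 36.2, 53.96 and 34.5 TPM across the null mice in the same order. All but null replicate 3 lay between 34.5 and 39.02 TPM, and null replicate 3 lay well above. The log2 fold change was 0.09 (95% CI -0.28 to 0.46), and -0.06 without that library. Its partner Cox5b, which binds zinc, stood at 109, 111, 115 and 98.3 TPM across the WT mice, replicates 1 to 4, and 98.7, 65.3, 103 and 98.8 TPM across the null mice in the same order. Here null replicate 2 stood alone at the bottom and the other null values lay within the WT range, with a log2 fold change of -0.26 (95% CI -0.63 to 0.11).

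Cox6b1, a subunit facing the intermembrane space and the most abundant complex IV mRNA as listed, before copies were added to any gene, stood at 188 ± 22.1 TPM (SD, n = 4) in WT mice and 206 ± 31.8 TPM (SD, n = 4) in null mice. Cox4i1, the common form of the largest nuclear subunit, stood at 169, 191, 178 and 190.3 TPM across the WT mice, replicates 1 to 4, and 166, 168, 207 and 185 TPM across the null mice in the same order. Null replicates 1 and 2 lay just below the WT range and null replicate 3 above it, and the log2 fold change was -0.01 (95% CI -0.26 to 0.24). Cox6c stood at 63.2, 62.4, 77.4 and 76.8 TPM across the WT mice, replicates 1 to 4, and 72.5, 92.1, 93.4 and 71.9 TPM across the null mice in the same order. Null replicates 2 and 3 lay above all WT values, and the log2 fold change was 0.23 (95% CI -0.10 to 0.56), a value that turned negative once its pseudogene copies were added, through null replicate 2, as described below.

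Several complex IV subunits have a common form and a paralog restricted to certain tissues or conditions, and the share of the restricted form was compared within each library. The difference between groups was tested on the log2 ratio of TPM + 1 by an exact two-sided permutation test over the 70 labelings, whose smallest possible p is 0.0286, and the p-values were adjusted over the 5 pairs. In 4 of the pairs the restricted form was a small minority. Cox4i2, the form induced by low oxygen, made up 7.82% ± 1.53 of the subunit 4 transcripts in WT mice and 7.03% ± 1.002 in null mice (SD, n = 4 per group, exact permutation p = 0.429, adjusted p = 0.536). Cox7a1, the form of heart and muscle, made up 6.41% ± 1.597 and 8.47% ± 2.79 (SD, n = 4 each, exact permutation p = 0.314, adjusted p = 0.536). It stood at 8.66, 10.5, 9.49 and 5.34 TPM across the WT mice, replicates 1 to 4, and 10.2, 16.1, 12.6 and 8.39 TPM across the null mice in the same order, with null replicates 2 and 3 above the WT range and null replicates 1 and 4 within it. The heart and muscle form Cox6a2 made up 1.52% ± 0.627 and 1.06% ± 0.417 of subunit 6a (SD, n = 4 each, exact permutation p = 0.371, adjusted p = 0.536). Cox8b, the form of heart, muscle and brown fat, was at 0 TPM in the WT mice and in null replicates 1 and 3, and at 0.579 and 0.525 TPM in null replicates 2 and 4. With the added 1 TPM its ratio is set by Cox8a wherever Cox8b is at 0, so no p is given for this pair, although it is among the 5 adjusted over.

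The pair Ndufa4 and Ndufa4l2 was different, in that the restricted form predominated. Ndufa4l2, a paralog induced by low oxygen that is known to lower complex I activity, stood at 108, 67.6, 85.8 and 112 TPM across the WT mice, replicates 1 to 4, and 91.6, 79.4, 78.03 and 104 TPM across the null mice in the same order. Ndufa4, a subunit of complex IV, stood at 61.6, 57.02, 58.4 and 47.8 TPM across the WT mice, replicates 1 to 4, and 58.3, 53.1, 88.4 and 54.9 TPM across the null mice in the same order. Ndufa4l2 lay above Ndufa4 in 7 of 8 libraries, the exception being null replicate 3, where Ndufa4 was at its highest. It made up 61.9% ± 6.67 of the pair in WT mice and 58.3% ± 8.001 in null mice (SD, n = 4 per group), a difference in the log2 ratio of -0.21 (exact permutation p = 0.571, adjusted p = 0.571) that was 0.00930 without null replicate 3. The common forms Cox6a1, Cox7a2 and Cox8a had log2 fold changes of 0.04 (95% CI -0.43 to 0.51), 0.06 (95% CI -0.30 to 0.41) and -0.12 (95% CI -0.37 to 0.12). Null replicate 3 was the highest library for each, at 108, 173 and 96.6 TPM.

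**Figure D4:**
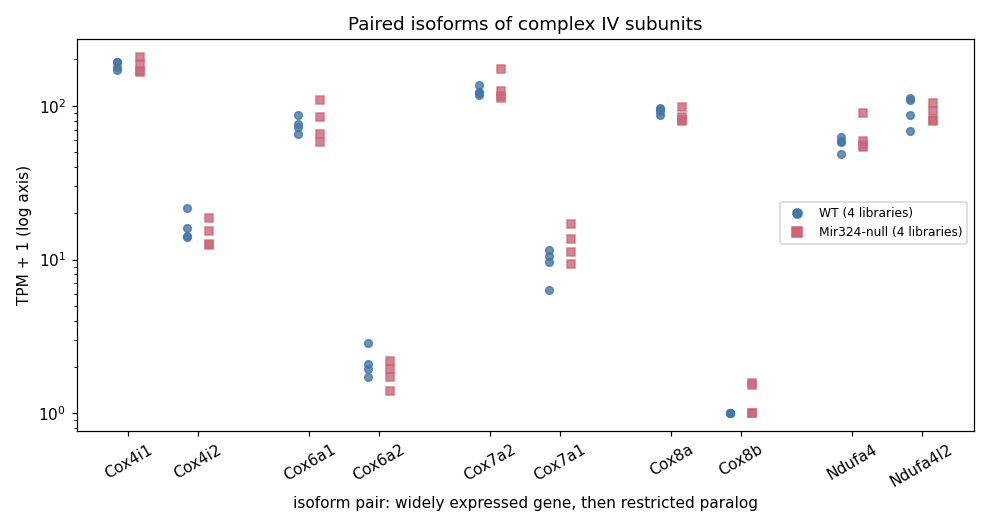
TPM + 1 of the common and the restricted form of 5 subunits in each library, on a log axis, WT as circles and null as squares. The restricted form lies far below the common one in 4 pairs, while Ndufa4l2 lies above Ndufa4 in 7 of 8 libraries, and WT and null points overlap in every column.

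Complex V, the ATP synthase, has a catalytic head, a rotating stalk with a ring of c subunits, and a stationary peripheral stalk. The genes of the head were close between groups. Atp5a1, the alpha subunit, stood at 154 ± 8.799 TPM (SD, n = 4) in WT mice and 171 ± 17.4 TPM (SD, n = 4) in null mice, with a log2 fold change of 0.14 (95% CI -0.10 to 0.39). Atp5b (chr10:128083273-128090391, plus strand), the catalytic beta subunit, stood at 246, 237, 251 and 226 TPM across the WT mice, replicates 1 to 4, and 242, 247, 339 and 231 TPM across the null mice in the same order. Null replicate 3 alone lay outside the WT range, far above it, and the log2 fold change of 0.13 (95% CI -0.19 to 0.44) was 0.00230 without this library. The rotating stalk genes Atp5c1, Atp5d and Atp5e had log2 fold changes of -0.03, -0.04 and 0.07.

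Atp5j (chr16:84827866-84835625, minus strand), which encodes coupling factor 6 of the peripheral stalk, was the most abundant of the 93 mRNAs as listed. With their copies added Cox7c and Atp5l stood above it, as given below. Their main copies are shorter transcripts, of 192 against 540 and 309 against 544 bases, so such sums are not levels of 1 mRNA. Atp5j stood at 396, 340.1, 282 and 385 TPM across the WT mice, replicates 1 to 4, and 301, 198, 333 and 355 TPM across the null mice in the same order. Null replicate 2 was the lowest and the other null values lay within the WT range, and the log2 fold change was -0.26 (95% CI -0.73 to 0.20). The other peripheral stalk genes Atp5f1, Atp5h and Atp5o had -0.03, -0.12 and -0.05.

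The c ring is encoded by Atp5g1, Atp5g2 and Atp5g3, whose precursors give the same mature protein. Atp5g2 (chr15:102662864-102672352, minus strand) stood at 6.19, 4.84, 4.904 and 6.38 TPM across the WT mice, replicates 1 to 4, and 2.85, 3.01, 6.48 and 3.34 TPM across the null mice in the same order. Null replicates 1, 2 and 4 lay below every WT value and null replicate 3 above every one. The log2 fold change was -0.47 (95% CI -0.999 to 0.07, limma adjusted p = 0.981). Atp5g1 and Atp5g3 averaged 36.8 and 130.2 TPM, against 4.75 TPM for Atp5g2, with log2 fold changes of 0.10 and 0.11. As listed, Atp5g2 was a minor source of the c ring transcripts, but most of the TPM of its sequence was assigned to a pseudogene.

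Such copies limit the levels of several of these genes. Coding sequences of the chain genes were compared with whole transcripts of the other genes in the annotation (GENCODE M21, GRCm38). A gene that matched at 90% identity or more over at least 80% of the coding sequence was counted as a copy. There were 69, of which 67 are annotated as pseudogenes, for 32 of the 93 genes, and 26 were listed at 0 TPM in every library. The copies together held 31.2% to 36.0% of the TPM of genes and copies combined, per library. Most of the copies' TPM was on 1 copy, Gm12338 of Cox7c. It held 2197 of 3092 TPM in WT replicate 1 and 1573 of 2348 TPM in null replicate 4. For 6 genes the copies held over 50% of the combined TPM. These were Atp5g2 (96.8%, nearly all on Gm10175), Cox7c (93.9%, on Gm12338), Ndufb4 (88.7%, on Gm3244), Cox6c (74.5%, on Gm6265), Atp5g1 (62.5%, on Gm10039) and Atp5l (60.2%, on Gm10221). How the authors' counting divided reads between a gene and its copies is not stated by the sources used here, and the separate levels of these genes and copies are uncertain.

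Cox7c is the clearest case, and its coding sequence is shown with the matching stretches of its main copies. Cox7c lies at chr13:86044816-86046904 (minus strand), Gm12338 at chr11:75599763-75599954 (minus strand) and Gm10012 at chr17:25901856-25902227 (plus strand), all GRCm38. Capitals mark the 2 positions at which Gm10012 differs from Cox7c, G30C and G107A, counted from the A of the start codon and written with the Cox7c base first.
Cox7c: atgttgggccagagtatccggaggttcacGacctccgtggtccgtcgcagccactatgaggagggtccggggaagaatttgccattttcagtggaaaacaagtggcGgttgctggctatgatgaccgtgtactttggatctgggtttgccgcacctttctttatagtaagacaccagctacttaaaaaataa
Gm12338: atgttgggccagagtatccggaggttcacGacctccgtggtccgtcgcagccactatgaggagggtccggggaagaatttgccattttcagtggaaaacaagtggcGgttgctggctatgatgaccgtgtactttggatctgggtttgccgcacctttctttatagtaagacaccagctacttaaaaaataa
Gm10012: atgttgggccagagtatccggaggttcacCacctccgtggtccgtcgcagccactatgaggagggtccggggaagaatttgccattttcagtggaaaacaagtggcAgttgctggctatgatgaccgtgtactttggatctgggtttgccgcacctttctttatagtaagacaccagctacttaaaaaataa
Gm12338 has 0 differences from Cox7c over the 192 bases, and these 192 bases are its whole annotated transcript, while that of Cox7c has 540. Cox7c itself stood at 126 ± 10.4 TPM (SD, n = 4) in WT mice and 128 ± 16.01 TPM (SD, n = 4) in null mice. Gm12338 was listed at 1973 ± 227 TPM (SD, n = 4) in WT mice and 1927 ± 321 TPM (SD, n = 4) in null mice, and Gm10012 at 15.2 ± 6.19 and 12.3 ± 2.305 TPM (SD, n = 4 each). TPM divides by transcript length, so the same number of reads gives a short pseudogene a higher TPM than the full mRNA.

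Adding the copies to their gene changed values of single genes and no call. Atp5g2 and Gm10175 together stood at 149 ± 14.9 TPM (SD, n = 4) in WT mice and 146 ± 13.9 TPM (SD, n = 4) in null mice, and the log2 fold change went from -0.47 to -0.02 (95% CI -0.30 to 0.25). Gm10175 makes up 96.8% of this sum and had -0.0055 alone, so the sum follows the copy. Ndufb4 with Gm3244 stood at 44.04 ± 4.31 and 43.7 ± 4.28 TPM (SD, n = 4 each). The coefficient of variation over the 8 libraries was 9.08%, against 39.9% for Ndufb4 alone and 9.99% for Gm3244 alone. Gm3244 makes up 88.7% of this sum, so its spread is mostly that of the copy. Cox6c with its copies went from a log2 fold change of 0.23 to -0.14 (95% CI -0.64 to 0.36). This turn of sign rests on null replicate 2, where the sum of gene and copies was 173 TPM, while in the other 7 libraries it was 279.9 to 349.5 TPM. Without that library the null mean of the sum was 328 ± 23.04 TPM (SD, n = 3), above the WT mean of 309 TPM. For Ndufa12 and its copy Gm15920, which held 48.9% of their combined TPM, the coefficient of variation was 34.2% for the sum and 39.3% for Ndufa12 alone, and Gm15920 was listed at 0 TPM in WT replicate 3, where Ndufa12 stood at 37.99 TPM. Cox7c and its copies summed to 2114 ± 224 TPM (SD, n = 4) in WT mice and 2069 ± 329.6 TPM (SD, n = 4) in null mice, and Atp5l and its copies to 478 ± 14.3 and 490.4 ± 74.5 TPM (SD, n = 4 each). Of the 11 copies that were tested, 0 passed limma's adjusted p of 0.05 and 0 had an unadjusted p under 0.05.

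**Figure D5:**
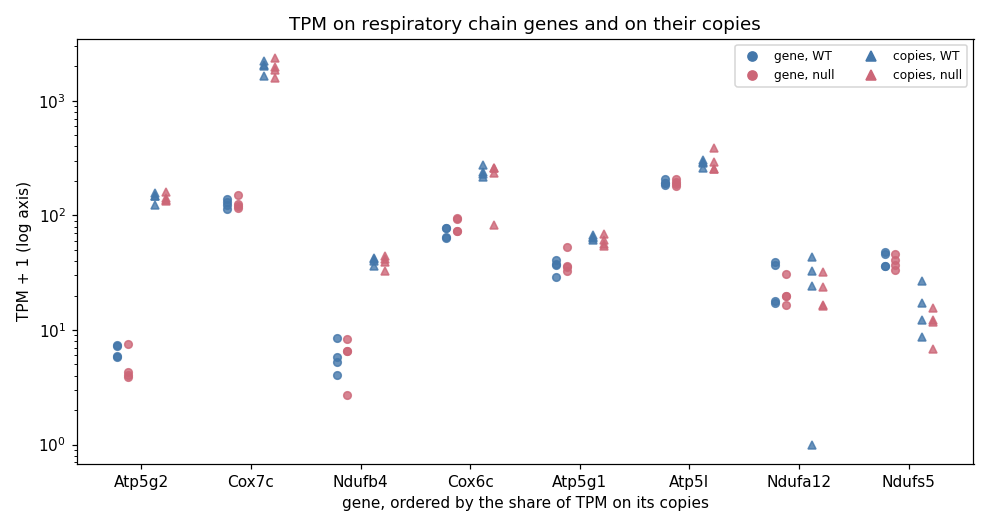
TPM + 1 on a log axis of 8 chain genes (circles) and of the summed copies of each (triangles) in every library, WT in blue and null in red. For the 6 genes at the left the copies hold 60.2% to 96.8% of the combined TPM, and WT and null points overlap for genes and copies alike.

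Promoters of these genes were searched for short motifs known from respiratory genes. Whether genes with a motif differed from those without it in any library was not tested. The windows are the 300 bases around the annotated start in RefSeq (GRCm38.p6), available for 77 of the 93 genes and 17491 genes in all, and both strands were searched. The motif of nuclear respiratory factor 1 (NRF1), GCGC and TGCGC with any base between them, was in 19 windows (24.7%), against 7.17% of all genes. The motif AANATGGCG of YY1, a zinc finger factor, was in 12 (15.6%), against 3.64%. These letters hold ATG and the windows run past the annotated start, so a match can be a start codon, which was not checked. An ETS motif bound by GABPA, CCGGAAGT, was in 5 (6.49%), against 5.69%, and the TATA box letters TATAAA were in 7 (9.09%), against 14.8%. The NRF1 motif was spread over all 5 complexes and the assembly factors, with 7 of 32 windows in complex I and 6 of 16 in complex V, while the YY1 motif was in 7 windows of complex I, 4 of complex V and 1 of an assembly factor. The windows of Ndufs6, with NRF1 and YY1 motifs, and of Atp5h, with NRF1 and ETS motifs, are shown on the gene's strand with the motifs in capitals.
Ndufs6, chr13:73328433-73328732, minus strand: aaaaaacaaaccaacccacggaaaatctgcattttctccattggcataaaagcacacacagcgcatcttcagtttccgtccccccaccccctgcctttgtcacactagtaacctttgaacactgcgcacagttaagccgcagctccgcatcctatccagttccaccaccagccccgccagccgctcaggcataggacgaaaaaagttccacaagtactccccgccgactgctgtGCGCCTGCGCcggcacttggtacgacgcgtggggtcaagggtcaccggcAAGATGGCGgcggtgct
Atp5h, chr11:115419870-115420169, minus strand: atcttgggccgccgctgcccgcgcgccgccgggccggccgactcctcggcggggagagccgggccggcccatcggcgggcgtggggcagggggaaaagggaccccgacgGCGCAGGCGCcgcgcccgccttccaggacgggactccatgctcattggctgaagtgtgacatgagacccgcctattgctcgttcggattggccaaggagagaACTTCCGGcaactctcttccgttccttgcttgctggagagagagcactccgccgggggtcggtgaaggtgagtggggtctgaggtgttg
In the Ndufs6 window the motifs are at bases 235 to 244 and 284 to 292, and in the Atp5h window at bases 110 to 119 and 212 to 219, both as the reverse complement of the letters given. A match describes these letters and does not show that a factor binds there. Ndufs6, an accessory subunit that holds zinc, had a log2 fold change of -0.29 (95% CI -0.83 to 0.24), and Atp5h, of the peripheral stalk, had -0.12 (95% CI -0.49 to 0.24).

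The 13 subunits encoded by the mitochondrial genome are built into the same complexes. Of these 11 had a positive log2 fold change and 2 a negative one, with a median of 0.23 against -0.05 for all genes tested, and 0 passed limma's adjusted p of 0.05, while 3 had an unadjusted p under 0.05, against 4.15% of all genes. Without null replicate 3 all 13 were positive, with a median of 0.22 against 0.02 for all genes. Of the 13, 3 then had an unadjusted limma p under 0.05, against 5.06% of all genes. The complex I subunit mt-Nd1 stood at 771, 773, 933 and 874 TPM across the WT mice, replicates 1 to 4, and 945, 1100.0, 1279 and 985 TPM across the null mice in the same order. Every null value lay above every WT value, and the log2 fold change was 0.36 (95% CI 0.07 to 0.65, unadjusted p = 0.0221, limma adjusted p = 0.981). Among all genes tested 2.68% had values that did not overlap. Another complex I subunit, mt-Nd4, had 0.30 (95% CI 0.01 to 0.59, unadjusted p = 0.0429, limma adjusted p = 0.981). In complex I the summed TPM of the 7 mitochondrial genes was 2.74, 3.15, 3.40 and 3.38 times that of the 36 nuclear genes in WT replicates 1 to 4, and 3.90, 4.36, 3.45 and 4.06 times in null replicates 1 to 4. The groups did not overlap, although null replicate 3 lay just above the highest WT value. For complex III the ratio was 1.77 ± 0.251 in WT and 2.15 ± 0.174 in null mice, and for complex IV 5.44 ± 0.834 and 6.52 ± 0.289 (SD, n = 4 each), with values that overlapped. In complex III the overlap came with null replicate 3, at 1.92, since the other null libraries, at 2.20, 2.33 and 2.17, lay above the highest WT value of 2.04. In complex IV null replicate 1, at 6.097, lay below the highest WT value of 6.56. For complex V it was 10.1 ± 1.78 and 11.3 ± 3.92 (SD, n = 4 each), and null replicate 3, at 5.49, was the lowest of the 8, while the other null libraries, at 12.52, 14.1 and 12.99, lay above the highest WT value of 11.8. These ratios are given as a description, with no test, and the sources used here do not state the selection of RNA on which they depend.

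The other genes of mitochondrial energy supply were compared in lists, and 0 genes of any list passed limma's adjusted p of 0.05. Of 8 tested electron carriers 2 had positive and 6 negative log2 fold changes, with a median of -0.15. Etfa, which passes electrons from fatty acid oxidation, had -0.33 (95% CI -0.69 to 0.02), and Cycs, the somatic cytochrome c, had 0.25 (95% CI -0.09 to 0.60). Of the 29 tested assembly factors of complexes II to V 11 were positive and 18 negative (median -0.05). Those with the smallest p were Coa7, of complex IV assembly, with -0.45 (95% CI -0.98 to 0.07), and Sdhaf4, of complex II assembly, with -0.38 (95% CI -0.84 to 0.07). Of the 8 tested complex I assembly factors with other names 4 were positive and 4 negative (median 0.02), and Lyrm2 had -0.49 (95% CI -0.90 to -0.07, limma adjusted p = 0.981) while Foxred1 had 0.42 (95% CI -0.02 to 0.86, limma adjusted p = 0.981).

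Of 16 citric acid cycle enzymes 6 were positive and 10 negative (median -0.04). Cs, the citrate synthase often used to gauge mitochondrial content, stood at 12.1 ± 1.22 TPM (SD, n = 4) in WT mice and 10.8 ± 0.604 TPM (SD, n = 4) in null mice, a log2 fold change of -0.15, and Ogdh, a subunit of the oxoglutarate dehydrogenase, had -0.19 (95% CI -0.59 to 0.20). Of the 13 genes of coenzyme Q synthesis 9 were positive and 4 negative (median 0.05), although those with the smallest p were negative, Coq6 with -0.38 (95% CI -0.78 to 0.02) and Coq9 with -0.22 (95% CI -0.50 to 0.06). Of the 17 genes of mitochondrial protein import 10 were positive and 7 negative (median 0.03), with -0.25 (95% CI -0.59 to 0.10) for Dnajc19 of the inner membrane import motor and 0.19 (95% CI -0.24 to 0.61) for Tomm5 of the outer membrane pore. Without null replicate 3 the medians were -0.12 for the electron carriers, -0.02 for the assembly factors of complexes II to V, -0.01 for those of complex I, 0.01 for the citric acid cycle, 0.05 for coenzyme Q synthesis and 0.0029 for import.

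Among 18 tested regulators of mitochondrial biogenesis 12 had positive and 6 negative log2 fold changes (median 0.03). Ppargc1a, the coactivator PGC-1 alpha that drives respiratory gene transcription in other tissues, stood at 1.71, 1.85, 3.76 and 2.52 TPM across the WT mice, replicates 1 to 4, and 1.36, 1.03, 0.495 and 0.900 TPM across the null mice in the same order. Every null value lay below every WT value, while 2.68% of all genes had values that did not overlap, in either direction. The log2 fold change was -0.81 (95% CI -1.32 to -0.31, limma adjusted p = 0.981), at a level close to the 1 TPM filter. Its relative Pprc1 stood at 49.8 ± 7.21 TPM (SD, n = 4) in WT mice and 63.3 ± 16.3 TPM (SD, n = 4) in null mice. In glycolysis, the other route to ATP, 6 of 16 tested genes were positive and 10 negative (median -0.05, and -0.01 without null replicate 3), and Hk2 and Tpi1 had values that did not overlap, against 2.68% of all genes. Hk2, which traps glucose in the cell, had a log2 fold change of 0.29 (95% CI 0.05 to 0.52), and Tpi1, a lower step, had -0.43 (95% CI -0.80 to -0.06), each with a limma adjusted p of 0.981.

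The labelled cell type was checked against marker genes. Col2a1, the main cartilage collagen, stood at 31940 to 43700 TPM across the 8 libraries, and Sox9, a transcription factor of chondrocytes, at 146 to 161 TPM in WT and 129 to 138 TPM in null libraries, without overlap (log2 fold change -0.19, 95% CI -0.40 to 0.02, limma adjusted p = 0.981). Such a lack of overlap held for 2.68% of all genes. Of the 10 chondrocyte genes tested 3 were positive and 7 negative (median -0.10), and 5 and 5 without null replicate 3. Several matrix genes were lowest in null replicate 3, the library in which the chain genes were high. Hapln1 stood there at 166 TPM against 336 to 443 TPM in the others, Matn3 at 144 against 228 to 319 TPM, Col11a1 at 1450 against 2376 to 2782 TPM and Col9a1 at 1892 against 2526 to 2916 TPM, whereas Comp was highest there, at 1960 against 1410.0 to 1630 TPM.

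Of 15 skeletal muscle genes, whose cells are rich in mitochondria, 8 were below 1 TPM in every library. The myosin Myh4 was at 0 throughout, and Myh1 and Myh2 did not exceed 0.0188 TPM. Some muscle genes were highest in null replicate 3: Ckm stood there at 1.01 TPM against 0.0530 to 0.344 TPM in the others, Myl1 at 1.16 against 0 to 0.687 TPM, Mb at 0.7535 against 0.118 to 0.418 TPM and Mylpf at 25.4 against 1.57 to 17.6 TPM. Others were not, with Tnnt3 at 51.1 TPM there and 40.2 to 107 TPM over all libraries, and Tnni2 lowest there at 3.09 TPM against 3.98 to 14.6 TPM. The summed muscle list was 48.0 to 124 TPM in WT and 64.6 to 84.9 TPM in the null libraries. Of 10 adipocyte genes 6 were below 1 TPM in every library, Ucp1 of brown fat among them at 0 to 0.204 TPM, while Fabp4 stood at 26.7 to 55.1 TPM, and the summed list was 29.8 to 50.7 TPM in WT and 42.8 to 58.8 TPM in the null libraries. Endothelial genes summed to 13.97 to 58.7 TPM in WT and 45.02 to 68.04 TPM in the null libraries. All 9 tested log2 fold changes were positive, and 4 had an unadjusted limma p under 0.05, against 4.15% of all genes. Vwf had 0.80 (95% CI 0.35 to 1.25, unadjusted p = 0.0033) and Pecam1 0.95 (95% CI 0.32 to 1.58, unadjusted p = 0.0079), each with a limma adjusted p of 0.981. Of 10 macrophage genes 6 were below 1 TPM in every library and 3 were tested. The list summed to 44.6 to 62.8 TPM in WT and 60.96 to 89.3 TPM in the null libraries. Cd14 alone held 27.3 to 41.3 and 41.02 to 61.0 TPM of this. Cd14 had 0.55 (95% CI 0.14 to 0.96) and Itgam 0.84 (95% CI -0.03 to 1.72). All 3 tested genes were positive, and without null replicate 3 they were 2 positive and 1 negative. Erythroid genes summed to 111 to 1082 TPM in WT and 281 to 1039 TPM in the null libraries, with 0.75 and 0.68 for the alpha globin genes Hba-a1 and Hba-a2. Among the muscle and adipocyte genes Tnni2 had -0.76 (95% CI -1.74 to 0.23), Tnnt3 -0.48 (95% CI -1.12 to 0.17), Fabp4 0.38 (95% CI -0.12 to 0.88) and Cidea 0.09 (95% CI -0.27 to 0.45), and Matn3 among the chondrocyte genes had -0.36 (95% CI -0.82 to 0.11). The part of these cells in the levels of the chain genes was not tested, and in bulk RNA fewer cells of a type and less RNA per cell cannot be told apart. Mir324 itself was at 0 TPM in WT and null libraries alike, and the table thus gives no check of genotype.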

How the data were processed

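RNA of costal chondrocytes from 8 mice, 4 WT and 4 Mir324-null, was compared in a single deposited table of gene-level values. The deposited values are TPM scaled by the authors to the same total in every library. With repeated rows counted once each column sums to 1000000. The column of null replicate 3, whose repeated rows carry its sum past that total, was entered as another unit and then treated as TPM. Per the submitters' processing notes, kallisto and DESeq2 were used, with no roles or versions, and the build named is GRCh38, a human build, although the identifiers are those of mouse genes. The annotation behind the deposited TPM is thus not known, and identifiers were matched to GENCODE M21 (52220 of 52325, and all 93 chain genes).

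The rule gave 96 rows and 93 genes once repeats were merged. It left out 5 pseudogene symbols ending in -ps and a digit, and 2 ending in plain -ps were also left out (95 genes if kept; the highest value among those left out is 2.22 TPM). Tests used limma 3.58.1 in R 4.3.3 with a trended prior on log2(TPM + 1), genotype as the only term, genes with at least 1 TPM in at least 4 libraries, and Benjamini-Hochberg adjustment over 13910 genes. Isoform pairs were tested by exact permutation, and copies were found with BLAST 2.17.0. On simulated data of 13910 genes, 4 against 4, limma recovered 7.46% of 1.5-fold, 58.2% of 2-fold and 90.9% of 4-fold changes, with 5 false calls.

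The genes named are, in each complex, the 3 with the smallest p and the 2 most abundant, the isoform pairs, Cox5a and the 2 genes with the smallest p of each other list. Further genes are named by their role, their copies or a seed site, after their values were seen. The values of 1 gene are not reported here, and it is left out of the plots but kept in the counts. The gene group, the lists and the tests were chosen with earlier results of these data known. Alternatives were other scalings, filters and pseudocounts, protein-coding genes only, array weights, the ratio of Xist to Y-linked RNA as a covariate, removal of the trend with transcript length, copies added to their gene, a replicate block, and leaving out each library.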

Additional observations from a re-analysis of the deposited data

Results flagged for a closer look

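In groups of 4 libraries, a value was singled out when its gap to the nearest other value exceeded Dixon's 95% critical share of the group's range, which chance alone does in about 1 of 20 groups. Of 92 groups examined, 7 met this, all in the null group, and 6 of them were high values of null replicate 3. These were Uqcrh at 310.0 TPM, Uqcrq at 146.8 TPM, Atp5b at 339.1 TPM, Ndufa4 at 88.44 TPM, Cox5a at 53.96 TPM and Atp5g2 at 6.481 TPM. The remaining value was low, Cox5b at 65.31 TPM in null replicate 2.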

How the results depend on the processing

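In every alternative 0 chain genes passed an adjusted p of 0.05, and the smallest adjusted p of any of them was 0.548 (limma). The 3 genes of the whole table that passed became 5 with a pseudocount of 0.1, and 0 with the Xist ratio as a covariate, with a mean TPM of at least 1, without a filter, with protein-coding genes only and with the replicate block. They numbered 2 to 7 when each library was left out. Same-numbered mice correlated at -0.039, 0.114, -0.047 and 0.108, and the other pairs of a WT and a null mouse at -0.132 to 0.107. These values cannot tell whether the numbers pair the mice. The block changed no call of a chain gene.

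Of 32 named genes tested, 16 changed sign in some alternative, all with small log2 fold changes, and the causes were not tested. Median-of-ratios scaling gave Sdhc 0.0165 and Cox4i1 0.0415, and protein-coding genes alone gave 0.0174 and 0.0422. The covariate gave Uqcrq -0.0476, removal of the length trend gave Sdhc 0.0361, and added copies gave Cox6c -0.144. Array weights gave Ndufa10 -0.0285, Ndufaf4 -0.0209, Sdha 0.0197, Sdhc 0.0236, Uqcrq -0.192, Atp5b -0.00520, Ndufa4l2 0.0299, Cox6a1 -0.0449, Cox7a2 -0.0555 and Cox5a -0.0484. Leaving out each library gave ranges of -0.205 to 0.0337 for Ndufa4l2, -0.112 to 0.0800 for Sdhc, -0.0739 to 0.0336 for Cox4i1, -0.131 to 0.173 for Cox6a1, -0.00970 to 0.0726 for Sdhd, -0.229 to 0.127 for Uqcrq, -0.206 to 0.00220 for Uqcrb, -0.201 to 0.0122 for Sdha, -0.0287 to 0.107 for Uqcrh, -0.0838 to 0.125 for Cox7a2, -0.0158 to 0.226 for Ndufa4 and -0.0570 to 0.153 for Cox5a. The log2 ratio of Ndufa4l2 to Ndufa4 ranged from -0.365 to 0.00930. With 4 mice per group, changes under 2-fold were often missed in simulation, TPM keeps no depth, and genes with near-identical pseudogenes have uncertain levels.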
